A study of Mus musculus with 6 samples.

Results

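Elastic fibre genes were followed in mouse RPE/choroid, which joins the retinal pigment epithelium (RPE) to the choroid, the bed of vessels that feeds the outer retina. The 10 genes are those whose symbol in the deposited table equals Eln, Fbn1, Fbn2, Ltbp2, Fbln1, Fbln5, Efemp1, Efemp2, Lox or Loxl1. All 10 were found among the 33924 genes of the table. The tissue came from 3 young and 3 aged wild-type C57BL/6J mice, with a pair of eyes in each sample, and was scraped from the sclera after the front of the eye, the muscles and the neural retina had been taken off. The labels give the young mice 1 to 2 months and the aged mice 20 to 24 months in the titles, or 22 to 24 months in the label for time. The labels call all 6 samples male. The study's methods speak of mice of both sexes and of somewhat older young mice. Total RNA was sequenced after removal of ribosomal RNA.

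An elastic fibre has a core of crosslinked elastin laid down on a scaffold of fibrillin microfibrils. Fibulins tether tropoelastin, the soluble elastin monomer, to that scaffold, and lysyl oxidases join its lysine residues into an insoluble polymer. In the eye such fibres form the middle layer of Bruch's membrane, the sheet between the RPE and the choroidal capillaries, and they also run through the choroid, the sclera and vessel walls.

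For each gene the authors' deposited table holds a mean normalised count over the 6 libraries (baseMean), a log2 fold change, its standard error, written SE here, and a DESeq2 adjusted p. Values per mouse were not analysed here, so the error given is the SE, or the 95% interval built from it, and depth per library is unknown here. The direction of the fold change is not written in the file. It was taken from the study's account of how many genes were higher in each group, and every direction below rests on it. The deposited fold changes are shrunken towards 0. Of the 3693 genes with a baseMean below 1, 100% had an SE below the smallest that counting error alone would leave an unshrunken comparison of 3 against 3 libraries (median SE 0.19, median of that bound 1.98, taking normalised counts as reads). How far the shrinkage reaches at the abundance of the members was not measured, so folds and implied group means rest on shrunken values and may understate the differences. A gene is said to rise or fall in aged mice where its adjusted p was below 0.05.

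In aged RPE/choroid, the genes for the elastin core and both fibrillins fell, Ltbp2 and Fbln1 rose, and the other fibulins and both lysyl oxidases did not pass the test. Of the 10 genes, 3 were lower in aged mice and 2 were higher. Among all 18636 genes tested, 9.92% were lower, 11.3% were higher and 21.2% differed in either direction. After the median of genes with a baseMean of at least 100 was set to 0, a shift of 0.06 called centring here, the shares over all genes were 12.3% lower and 8.88% higher, so higher calls made up 53.2% of all calls as deposited and 42.0% after centring. The 10 members had a median log2 fold change of 0.09, against -0.01 over all genes tested and 0.12 over the 5090 genes tested in the same range of baseMean, and lay between -1.45 and 1.08.

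Stricter call rules kept fewer members. At an adjusted p under 0.01, 3 members were lower and 1 was higher, where 5.76% of all genes tested were lower, 7.76% were higher and 13.5% differed. At the threshold of 0.05 with a log2 fold change of at least 1 in size, 2 were lower (Eln and Fbn2) and 1 was higher (Ltbp2), against 4.62% lower, 3.65% higher and 8.27% in either direction. With no filter on low genes, where 6.22% of genes were lower and 7.28% higher, the same 5 members passed. They also did among genes with a baseMean of at least 100, where 8.82% were lower, 14.1% higher and 22.9% either.

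**Figure D1:**
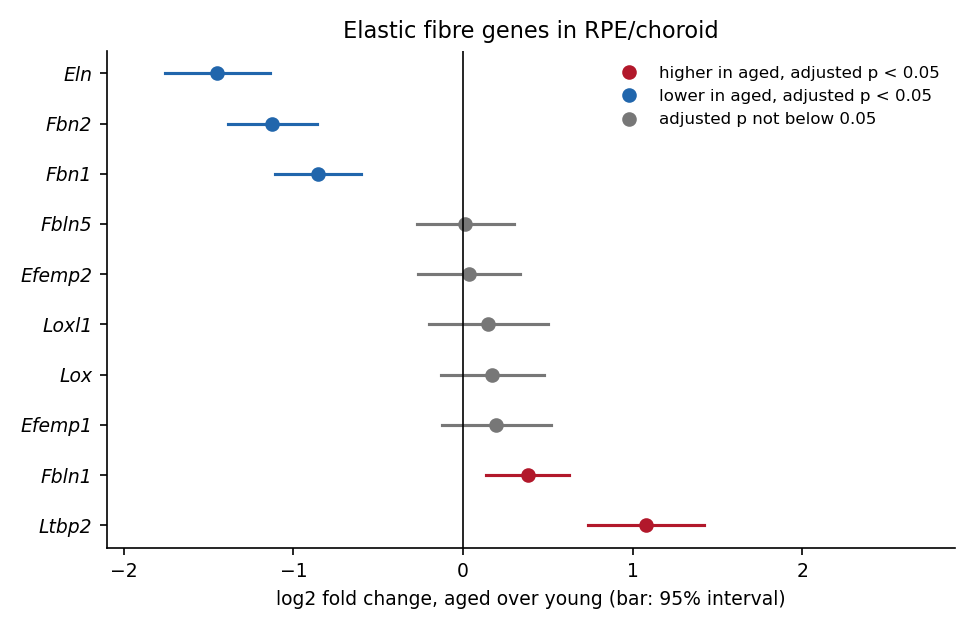
Log2 fold change, aged over young, of each of the 10 elastic fibre genes, with bars for the 95% interval from the SE. Eln, Fbn2 and Fbn1 lie below 0, Fbln1 and Ltbp2 lie above 0, and the intervals of the other 5 genes include 0.

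Eln, which encodes tropoelastin, had the largest fall among the members. Its log2 fold change was -1.45 (SE 0.16, 95% interval -1.76 to -1.14, adjusted p 5.63e-18), which is 2.73-fold lower in aged mice (interval 2.20 to 3.38). The group means implied by the baseMean of 847 and the fold change were 1239 normalised counts in young and 454 in aged mice. Only 1.54% of all genes tested had a lower fold change. The gene lies on chromosome 5 at 134702593 to 134747323 (GRCm38), on the minus strand, and its longest coding transcript has 37 exons.

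The fibrillins, large glycoproteins that assemble into microfibrils, both fell. Fbn1, the main fibrillin of adult tissue, had a log2 fold change of -0.86 (SE 0.13, 95% interval -1.11 to -0.60, adjusted p 1.45e-09). Its implied means were 13504 in young and 7461 in aged mice. Fbn1 had the largest baseMean of the members, 10483, and 34.8% of the summed baseMean of the 10 genes was its own. Fbn2, best known from developing tissue, fell by 1.12 (SE 0.13, 95% interval -1.39 to -0.86, adjusted p 3.77e-15), from an implied 2998 to 1376 normalised counts. The intervals of the fibrillins overlap each other, and that of Fbn2 overlaps that of Eln, whereas the intervals of Eln and Fbn1 do not overlap. Fbn1 lies on chromosome 2 at 125300594 to 125507993 and Fbn2 on chromosome 18 at 58008623 to 58210487, and each has 65 exons in its longest coding transcript.

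Ltbp2 went the other way. It encodes a member of the latent TGF-beta binding protein family that attaches to fibrillin microfibrils. Its log2 fold change was 1.08 (SE 0.17, 95% interval 0.74 to 1.42, adjusted p 2.23e-08), which is 2.11-fold higher in aged mice (interval 1.67 to 2.68). The implied means were 1674 in young and 3534 in aged mice. Of all genes tested, 96.7% had a lower fold change. Ltbp2 lies on chromosome 12 at 84783212 to 84876532.

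The fibulins of the list did not move as a block. Fbln1, found in elastic fibres and in basement membranes, rose with a log2 fold change of 0.38 (SE 0.12, 95% interval 0.14 to 0.63, adjusted p 0.0146), or 1.30-fold (interval 1.10 to 1.54). This is the weakest of the 5 calls, since after centring its value was 0.32 and its adjusted p 0.0507. Fbln5, which binds tropoelastin, integrins and Loxl1, had 0.01 (SE 0.15, adjusted p 0.961). As deposited, its implied means of 3284 and 3317 had the ratio closest to 1 in the set, whereas after centring Efemp2 was closest to no change. Efemp2 (fibulin-4), which brings Lox to tropoelastin, had 0.04 (SE 0.15, adjusted p 0.908). Efemp1 (fibulin-3), a matrix protein made by RPE cells, had 0.20 (SE 0.17, adjusted p 0.431). The 95% intervals run from -0.27 to 0.30 for Fbln5, from -0.27 to 0.34 for Efemp2 and from -0.13 to 0.52 for Efemp1. Falls of the size seen for Eln or either fibrillin lie outside all of these intervals. Fbln1 lies on chromosome 15 at 85205949 to 85286535, Fbln5 on chromosome 12 at 101746565 to 101819055, Efemp1 on chromosome 11 at 28853204 to 28926743 and Efemp2 on chromosome 19 at 5473954 to 5482517.

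The crosslinking enzymes of the list gave values near each other. Lox had a log2 value of 0.17 (SE 0.15, 95% interval -0.13 to 0.48, adjusted p 0.467) and Loxl1 one of 0.15 (SE 0.18, 95% interval -0.20 to 0.50, adjusted p 0.609). Their implied means were 2184 and 2463 for Lox, and 2189 and 2429 for Loxl1, in young and aged mice in that order. Lox, at 52516067 to 52529867, is on the same chromosome as Fbn2, with a gap of 5.48 Mb between the genes. Loxl1 lies on chromosome 9 at 58287738 to 58313186.

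Set in order of fold change, the members form 3 blocks whose 95% intervals do not touch. Eln, Fbn2 and Fbn1 are the lowest block. Fbln5, Efemp2, Loxl1, Lox, Efemp1 and Fbln1 follow, each with an interval that overlaps its neighbour's, and Ltbp2 stands alone at the top. The gap between Fbn1 and Fbln5 was 0.87 and that between Fbln1 and Ltbp2 was 0.70 on the log2 scale. The fold changes come from the same 6 libraries, and the differences between genes were not tested.

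**Figure D2:**
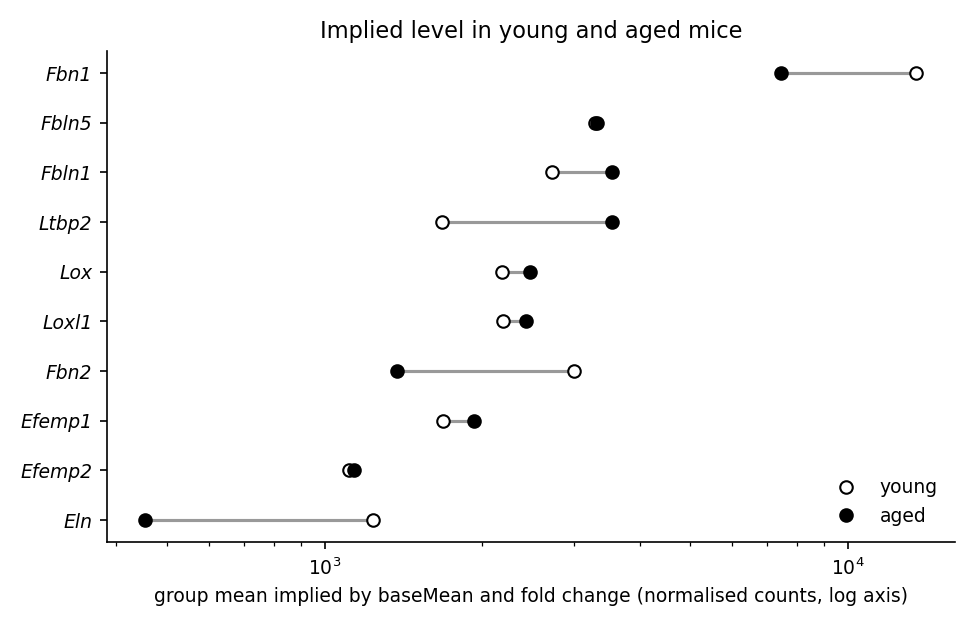
Group mean in young (open circles) and aged mice (filled circles) implied by baseMean and fold change, in normalised counts on a log axis, for the 10 genes ordered by baseMean. The widest spans are those of Eln, from 1239 to 454, and of Fbn2 and Ltbp2, which run in opposite directions.

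In summed normalised counts the change depended on Fbn1, which has the longest coding transcript of the members. Counts were not divided by transcript length before summing, so long transcripts may weigh more. A sum per kilobase was not made. The implied means of the 10 genes summed to 32586 normalised counts in young and 27649 in aged mice, a change of -15.2%. Without Fbn1 the sums were 19083 and 20188, a change of 5.79%. After centring the changes were -18.7% for the 10 genes and 1.37% without Fbn1. The 3 genes that fell summed to 17741 in young and 9291 in aged mice, and the 2 that rose to 4392 and 7076.

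Levels were compared between genes per kilobase of the longest coding transcript in GENCODE M21. On this scale baseMean was highest for Efemp1 (888 per kb), Fbn1 (876 per kb) and Fbln1 (855 per kb), whose ratios to the next gene were 1.01, 1.02 and 1.22. Loxl1 (700 per kb), Fbln5 (566 per kb), Lox (490 per kb), Efemp2 (427 per kb) and Ltbp2 (385 per kb) came next. Eln (220 per kb) and Fbn2 (198 per kb) were the lowest. No spread over mice stands behind these levels, so the order of close neighbours is not resolved. The methods derive the normalised counts from abundance estimates and do not say whether gene length still acts on them, so the order holds only if it does.

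**Figure D3:**
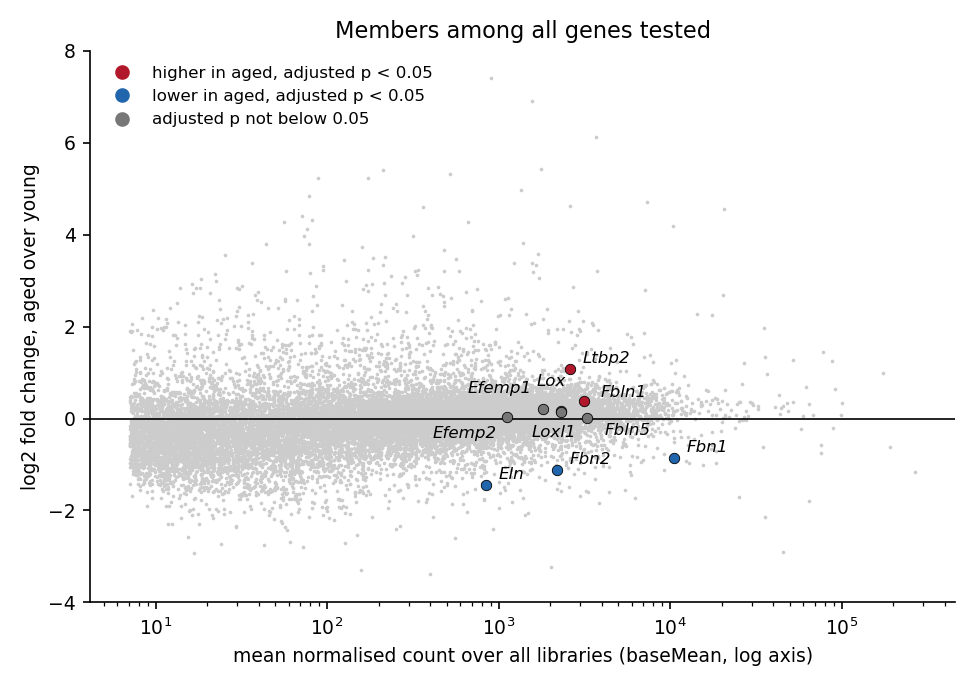
Log2 fold change, aged over young, against baseMean on a log axis, for all 18636 genes tested (grey) and the 10 members (coloured by call). The members span a baseMean of 847 to 10483, and all lie among genes of moderate to high abundance.

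Precision was alike across the members. Their SEs ran from 0.12 to 0.18, and the median SE of the 5090 genes tested in the same range of baseMean was 0.14. Among those 5090 genes, 6.78% were lower and 18.3% were higher in aged mice. The smallest absolute log2 fold change called among them was 0.29, so changes below that size were not called at this abundance. Reads of the members could be told from those of other genes, as 98.8% to 100% of their 31-base words occur in no transcript of another gene. Where other genes overlap a member on the opposite strand, those in the table had a lower baseMean than the member. Gm9913 at Fbn1 had 19.5, D030025P21Rik at Ltbp2 had 2.56 and Mus81 at Efemp2 had 424. Whether reads were counted by strand is not given in the sources used here.

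The promoters of Fbn1, Ltbp2 and Fbln1 are shown because Fbn1 fell whereas Ltbp2 and Fbln1 rose. Each is the 250 bases before a RefSeq start site (GRCm38.p6), written 5′ to 3′ along the gene, and 6 of the 10 members had an entry in that table. Eln, Fbn2, Lox and Loxl1 had none. Motifs were searched on both strands, and matches are in capitals. The motifs were the TATA box (TATAAA), the CCAAT box (CCAAT), the GC box (GGGCGG), the AP-1 site (TGAGTCA), a TEAD site (GGAATG) and a SMAD motif (CAGACA). Fbn1 is chr2:125506439-125506688 on the minus strand, Ltbp2 is chr12:84876492-84876741 on the minus strand, and Fbln1 is chr15:85205699-85205948 on the plus strand. Against the gene bounds of GENCODE M21, all 250 bases of the Fbn1 window lie inside the gene, with its RefSeq start 1555 bases downstream of the annotated one. Of the Ltbp2 window 41 bases lie inside the gene, and of the Fbln1 window 0.
Fbn1: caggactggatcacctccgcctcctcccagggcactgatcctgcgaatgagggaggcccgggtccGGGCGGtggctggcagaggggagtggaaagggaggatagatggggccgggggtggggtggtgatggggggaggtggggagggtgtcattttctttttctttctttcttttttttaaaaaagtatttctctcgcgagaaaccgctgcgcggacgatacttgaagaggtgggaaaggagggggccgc
Ltbp2: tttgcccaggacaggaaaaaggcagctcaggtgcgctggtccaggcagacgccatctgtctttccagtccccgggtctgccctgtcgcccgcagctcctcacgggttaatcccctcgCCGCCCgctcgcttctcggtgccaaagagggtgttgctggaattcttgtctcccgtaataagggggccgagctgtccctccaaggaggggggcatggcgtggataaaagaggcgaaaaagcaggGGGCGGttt
Fbln1: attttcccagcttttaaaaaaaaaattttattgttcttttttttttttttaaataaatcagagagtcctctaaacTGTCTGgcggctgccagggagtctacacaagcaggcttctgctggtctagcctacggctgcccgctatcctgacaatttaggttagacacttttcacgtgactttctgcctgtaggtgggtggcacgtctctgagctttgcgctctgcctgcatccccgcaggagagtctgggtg

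Fbn1, which fell, held 1 GC box, 185 to 180 bases before the start. Ltbp2, which rose, held 2, at 133 to 128 bases on the opposite strand and at 9 to 4 bases on the strand of the gene. A GC box was present in 32.7% of all 32851 promoter windows of this length. Fbln1 held 1 SMAD motif on the opposite strand at 175 to 170 bases, a motif found in 17.1% of all windows. Fbln1 had a second entry, chr15:85205758-85206007, which held the same SMAD motif, at 234 to 229 bases before its own start, and a GC box on the opposite strand at 11 to 6 bases. The window printed is the one that ends at the annotated start of the gene. The TATA box, the CCAAT box, the AP-1 site and the TEAD site, found in 12.4%, 33.8%, 4.46% and 12.6% of all windows, had no match in the printed windows, and the matches shown do not overlap. The GC content was 59.2% for Fbn1, 61.6% for Ltbp2 and 46.4% for the printed window of Fbln1, with 62.4% in its second window, against a median of 52.4%. These matches are a description of the letters only.

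The latent TGF-beta binding protein and fibulin families held both rises and falls, whereas the fibrillins and lysyl oxidases held falls and no rise that passed the test. Among the 4 latent TGF-beta binding protein genes, Ltbp1, whose product anchors latent TGF-beta in the matrix, fell by 1.12 (SE 0.19, adjusted p 1.24e-07), an interval that does not touch that of Ltbp2. Ltbp3 had 0.10 (SE 0.16, adjusted p 0.695) and Ltbp4 -0.20 (SE 0.21, adjusted p 0.553). The fall of Ltbp1 and the rise of Ltbp2 left the sum of the 4 implied means at 9447 normalised counts in young and 9520 in aged mice.

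Of the 6 fibulin genes, Fbln2, which was no member, fell by 1.14 (SE 0.13, adjusted p 5.61e-16), and Fbln7 rose with 0.67 (SE 0.16, adjusted p 0.000416). Together with Fbln1 this gave 2 rises and 1 fall in the family. Of the 5 lysyl oxidase genes, Loxl2 alone passed the test, with a fall of 1.16 (SE 0.13, adjusted p 2.84e-18), but only 53.8% of its 31-base words occur in no other gene, so its reads may have been shared. Loxl3 had -0.16 (SE 0.15, adjusted p 0.505) and Loxl4 -0.43 (SE 0.19, adjusted p 0.0858). After centring, Loxl4 passed the test with -0.49 (adjusted p 0.0420).

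Mfap2, Mfap4 and Mfap5, which encode proteins bound to microfibrils, fell. Mfap4 fell by 1.00 (SE 0.14, adjusted p 6.34e-11), Mfap5 by 0.66 (SE 0.15, adjusted p 0.000236) and Mfap2 by 0.56 (SE 0.20, adjusted p 0.0346). Emilin1, which sits at the border of elastin and microfibrils, had 0.05 (SE 0.15, adjusted p 0.868), and Emilin2 had 0.00 (SE 0.15, adjusted p 0.990).

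**Figure D4:**
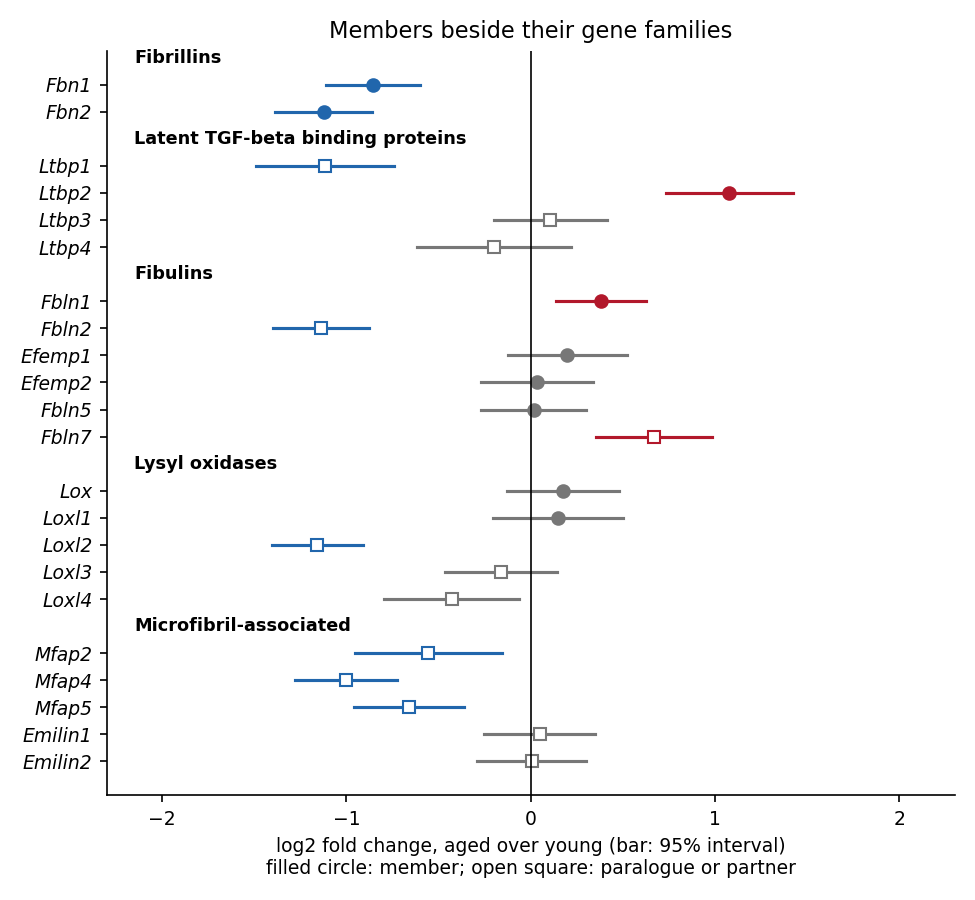
Log2 fold change, aged over young, with 95% intervals, for members (filled circles) and their paralogues and microfibril partners (open squares), by family. Ltbp1 and Ltbp2 lie on opposite sides of 0, as do Fbln2 and Fbln7, and Fbn1, Fbn2, Mfap2, Mfap4 and Mfap5 lie below 0.

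The wider list of 18 microfibril and elastic fibre associated genes holds the Ltbp, Fbln, Mfap and Emilin partners above. It had 10 genes lower and 2 higher, with a median log2 fold change of -0.48, where 9.92% of all genes tested were lower and 11.3% higher. The largest falls were those of Adamts17 (-2.53, SE 0.22), a protease of the fibrillin microfibril, Vcan (-1.63, SE 0.39), the proteoglycan versican, and Npnt (-1.25, SE 0.16), an integrin ligand of basement membranes. Beside Fbln7, the second rise was that of Adamtsl5 (0.47, SE 0.18, adjusted p 0.0398), whose adjusted p was 0.0559 without a filter on low genes and 0.0852 after centring.

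Helpers of crosslinking and secretion, with genes of the elastin receptor complex, numbered 12, of which 3 fell and 1 rose (median -0.15). Over all genes tested, 9.92% were lower and 11.3% higher. The falls were those of Loxl2, of Bmp1 (-0.72, SE 0.14, adjusted p 4.78e-06), the protease that activates the Lox precursor, and of Fkbp10 (-0.48, SE 0.15, adjusted p 0.0114), a chaperone of tropoelastin and collagen. Ctsa, a lysosomal carboxypeptidase, rose with 0.71 (SE 0.12, adjusted p 1.74e-07).

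Among the 5 pathway lists, the elastin-degrading proteases held the largest changes. Of the 9 listed, 5 were tested and 2 rose (median 0.33), where 11.3% of all genes tested were higher and 9.92% lower. Mmp12, macrophage elastase, stood at 4.97 on the log2 scale (SE 0.18, adjusted p 1.71e-171), and Ctss, the elastinolytic cathepsin S, at 4.56 (SE 0.17, adjusted p 1.57e-159) at a baseMean of 20762. Mmp2 had -0.46 (SE 0.14) and no p-value. Of the 13 protease inhibitors, 8 were tested, 3 rose and 1 fell (median 0.25). The rises were those of Timp1 (1.71, SE 0.22), Timp4 (1.16, SE 0.22) and Timp2 (0.80, SE 0.14), inhibitors of matrix metalloproteinases, and the fall was that of Reck (-0.50, SE 0.14, adjusted p 0.00301), a membrane-bound inhibitor. Timp3, an inhibitor stored in Bruch's membrane, had 0.26 (SE 0.13, adjusted p 0.147).

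Microfibrils also hold latent TGF-beta. Of 12 TGF-beta ligands and integrins, 4 rose and 2 fell (median 0.28), where 11.3% of all genes tested were higher and 9.92% lower. Tgfb1 rose with 0.95 (SE 0.25, adjusted p 0.00130), Itgb5 with 0.79 (SE 0.14, adjusted p 3.19e-07) and Tgfb3 with 0.68 (SE 0.12, adjusted p 1.88e-07). Itgb6, the partner of alpha v in an integrin that activates TGF-beta, fell by 0.67 (SE 0.16, adjusted p 0.000334) and Tgfb2 by 0.35 (SE 0.13, adjusted p 0.0409). Without a filter on low genes the adjusted p of Tgfb2 was 0.0573.

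Markers of cell types moved beside the members, where 9.92% of all genes tested were lower and 11.3% higher. Of 10 markers of choroidal and scleral fibroblasts, 7 fell and 1 rose (median -1.31), from -3.38 for Kera, -2.91 for Col1a1 and -2.14 for Col3a1 to 0.51 for Dcn, and Lum had 0.26 and Pdgfra 0.21, which did not pass the test. Their summed implied level was 305836 in young and 127054 in aged mice. Of 10 smooth muscle and pericyte markers, 4 fell and the other 6 did not pass the test (median -0.16), with the contractile genes Myh11 at -1.19, Cnn1 at -1.12 and Acta2 at -0.94. Of those 6, 5 had values above 0, from 0.06 for Pdgfrb to 0.32 for Rgs5, both genes of pericytes. Of 10 macrophage markers, 9 were tested and 8 rose (median 1.94), among them Cd5l (7.41), Itgax (5.43) and Cd68 (3.37), and the summed implied level of the 9 was 10416 in young and 30057 in aged mice. Lyz2, the macrophage marker without a p-value, had a log2 fold change of 4.09 (SE 0.17), with implied means of 4274 and 72867. Whether a single library carries this value was not checked. In bulk tissue, fewer cells of a type and less RNA per cell cannot be told apart. The part of these cell types in the falls of Eln, Fbn1 and Fbn2 and in the rises of Ltbp2, Mmp12 and Ctss was not tested.

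RPE markers ran from a baseMean of 69.8 for Best1 to 99322 for Ttr, with 43745 for Rpe65. Of 9 RPE markers, 8 were tested, and 2 rose, Best1 (0.68) and Rgr (0.63), with a median of 0.33. Over all genes tested, 11.3% were higher and 9.92% lower. Best1 had an adjusted p of 0.0573 without a filter on low genes and 0.0696 after centring. RNA of tissues outside the label was read as well. Of 8 skeletal muscle markers, 7 were tested and 4 fell (median -0.70), among them Myl1 (-0.94), Mylpf (-0.92) and Myh2 (-0.84), whereas Myh4, the most abundant, had 0.35 (adjusted p 0.273). The summed implied level of the 7 was 135645 in young and 113969 in aged mice. The 8 rod photoreceptor markers, all tested, had a median of 0.26, with summed levels of 95281 and 114492, and 0 of them passed the test by the authors' DESeq2 values, also 0 at an unadjusted p under 0.05. Lens markers had a median of -0.25 (4 of 8 tested) and sums over those 4 of 1598 in young and 1457 in aged mice. Of these, 0 were called and 0 had an unadjusted p under 0.05. The other 4 had no p-value and log2 fold changes from -0.54 to -0.33. Over all 8 lens markers the sums were 6235 in young and 4945 in aged mice. Endothelial markers (9 of 10 tested) had a median of -0.14, with 1 rise, Vwf (0.69), and 1 fall, Tek (-0.44). Melanocyte markers (7 of 8 tested) had 0.05, with 1 fall, Tyr (-0.59).

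**Figure D5:**
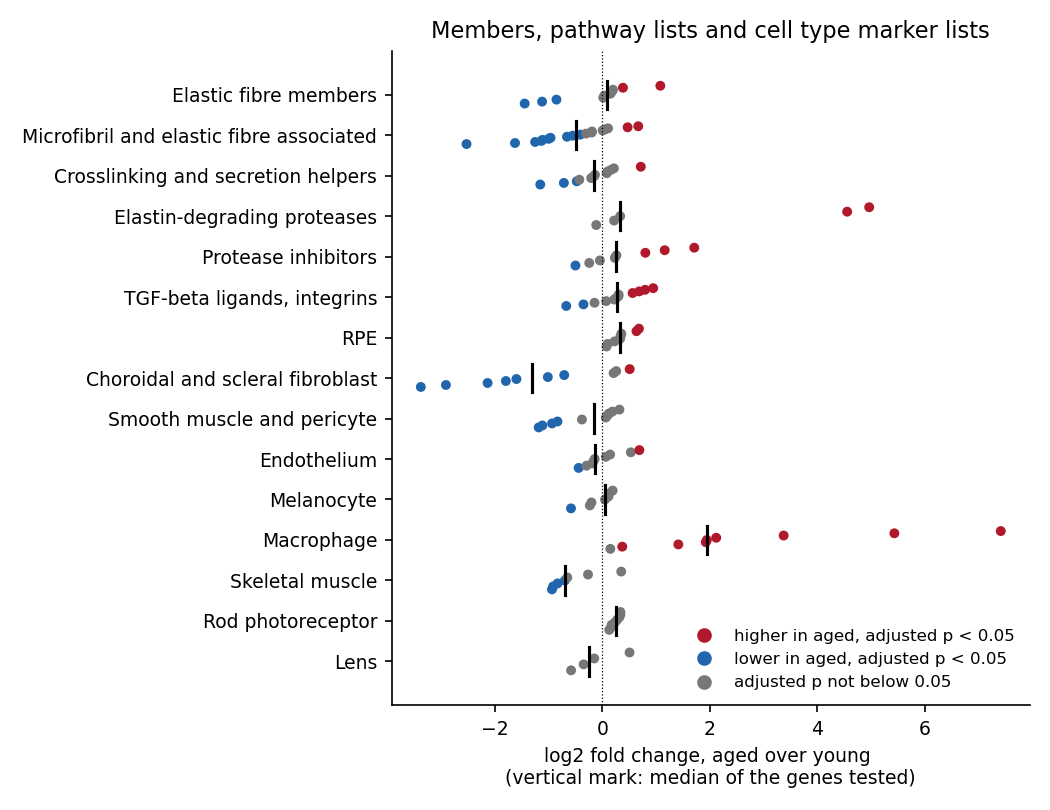
Log2 fold change, aged over young, of each gene tested in the member list, the 5 pathway lists and the 9 marker lists, with a vertical mark for the median of each list. The members spread to both sides of 0, fibroblast markers lie mostly below it and macrophage markers above it.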

How the data were processed

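RPE/choroid RNA of 3 young and 3 aged mice was sequenced. The authors trimmed reads with BBDuk, mapped them with STAR to Ensembl transcripts of GRCm38, quantified transcripts with Sailfish, normalised to the total count, and tested aged against young with DESeq2. Only the table of that comparison was used, with 0 columns that name a sample. Its baseMean is a normalised signal deposited by the authors. Fold change and standard error are log2 values as deposited by the authors. The Wald score was deposited by the authors, as were each p-value and adjusted p-value. Shrinkage of the fold changes is not named in the sources used here, but was read from the standard errors of genes with low baseMean.

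The sign was reversed, so that positive values are higher in aged mice. No test per gene was rerun, and a gene was called at an adjusted p below 0.05. A p-value was missing for 160 genes with a fold change, and 7885 with a p-value had no adjusted p. Why it was missing is not given in the sources used here. Without values per library, outlying libraries could not be checked for genes such as Mmp2 and Lyz2. Recomputed p and adjusted p differed from those deposited by at most 0.449% and 0.572%. Intervals are the fold change plus or minus 1.96 SE. Implied group means split baseMean by the fold change over equal groups, and take that fold change as the ratio of the means.

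Gene positions and lengths are from GENCODE M21 (GRCm38). Promoters are from RefSeq. The 10 members, the 5 pathway lists and the 9 marker lists were chosen with earlier results of these data known. Named from each list are the 3 largest rises and 3 largest falls among called genes with a baseMean of at least 30, with all members, their paralogues in the lists, Mfap2, Mfap4, Mfap5 and Mmp12. Emilin1, Emilin2, Mmp2, Timp3, Lum, Pdgfra, Pdgfrb, Rgs5, Myh4, Lyz2, Rpe65, Ttr and the genes that overlap members were named after their values were seen. One marker, Adgre1, was read under its synonym Emr1. Alternatives were a threshold of 0.01, a log2 change of 1 or more in size, no filter on low genes, a baseMean of at least 100, and centring. Analyses used Python 3.11.15, pandas 2.3.3 and scipy 1.17.1, and the adjustment was tested on simulated data.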

Additional observations from a re-analysis of the deposited data

How the results depend on the processing

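Of the 10 elastic fibre genes, 5 differed as deposited, without a filter on low genes and among genes with a baseMean of at least 100. An adjusted p under 0.01 and the centring each left 4, in both cases without Fbln1. Requiring a log2 change of 1 or more in size left 3 (Eln, Fbn2 and Ltbp2), and is stricter by construction. Eln, Fbn2 and Ltbp2 kept their direction and their call under each of the 5 alternatives run. All 5 reuse the deposited fold changes and SEs, and only centring shifts the values, by 0.06. They therefore say nothing about the spread over mice. Centring turned the sign of 2 members with values near 0, Fbln5 to -0.0497 (adjusted p 0.856) and Efemp2 to -0.0293 (adjusted p 0.923), both far from the threshold.

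Over all genes, 3949 differed as deposited, 2520 at an adjusted p under 0.01 and 1542 with the minimum fold change. The minimum fold change left 11 of 28 calls in the pathway lists and 15 of 29 in the marker lists. Centring gave 1655 higher and 2289 lower genes, against 2100 and 1849.

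No paired analysis was possible because values of single libraries were not analysed here, and for the same reason no library was left out. Wald p-values for members without a p-value were not needed, as each member had one. Depth per library is unknown here, and log2 changes under 0.29 were not called at the abundance of the members.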
